A study of Homo sapiens with 12 samples.

Results

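The subject is 10 human genes of the antioxidant and carbonyl-reducing programme that the transcription factor NRF2 (gene NFE2L2) is known to drive. NQO1, GCLM, GCLC, HMOX1, TXNRD1 and SRXN1 are textbook NRF2 targets, and AKR1C1, AKR1C2, AKR1C3 and AKR1B10 encode aldo-keto reductases of family 1. They were found by their current symbols among the 19775 genes that at least 1 probe set measured alone, and all 10 were measured. Expression was read on 12 Affymetrix arrays of FG and L3.6pl, established human pancreatic carcinoma lines. Each line was grown in normoxia, that is without treatment, or in hypoxia, that is at 1% oxygen (air displaced by nitrogen) for the final 24 h of a culture that typically lasted 9 days, with 3 arrays in each of the 4 groups. All groups shared the medium (DMEM with foetal bovine serum) and started from frozen cells that were not passaged. Each line stands for 1 tumour-derived culture with no stroma or immune cells, and nothing in the labels says that the 3 replicates were separate cultures, so every p-value measures the spread between these arrays, which may be technical.

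In unstressed cells the adaptor KEAP1 brings NRF2 to a CUL3 ubiquitin ligase for degradation. Oxidants and electrophiles disable KEAP1, and NRF2 then pairs with a small MAF protein (MAFF, MAFG or MAFK) and binds antioxidant response elements beside its targets. BACH1 competes for the same elements as a repressor, most strongly at HMOX1. GCLC and GCLM form the enzyme that makes the first bond of glutathione, TXNRD1 and SRXN1 restore thioredoxin and peroxiredoxins, NQO1 reduces quinones, HMOX1 degrades heme, and the AKR1 enzymes reduce aldehydes, ketones and steroids with NADPH. In pancreatic carcinoma the pathway is known for raising resistance to oxidative stress and drugs.

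The promoter letters are shown first because they set out what is alike and unlike among these genes. RefSeq windows on build GRCh38.p14, from 250 bases before to 50 bases after a gene's start, were at hand for 8 of the 10 genes (10 windows, with a pair each for TXNRD1 and AKR1C3), and for HMOX1 and AKR1B10 none was used. The core of the antioxidant response element was searched as TGACNNNGC on both strands. It occurred in 3 of the 10 windows, belonging to GCLM and TXNRD1, against 4687 of all 35116 windows (13.3%). The matches are printed with 10 bases on each side and the core in capitals, in the direction of the gene, and distances count from the first base of the core. The GCLM match is at chr1:93909446-93909474 on the minus strand and starts 34 bases before the gene's start. The TXNRD1 matches lie on the plus strand at chr12:104215670-104215698, 99 bases before the start, at chr12:104215761-104215789, 8 bases before it and running over it, and, in the other window, at chr12:104286920-104286948, 102 bases before that start.
GCLM: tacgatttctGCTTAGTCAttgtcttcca
TXNRD1, first window, far match: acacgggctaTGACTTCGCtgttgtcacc
TXNRD1, first window, near match: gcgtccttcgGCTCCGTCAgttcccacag
TXNRD1, second window: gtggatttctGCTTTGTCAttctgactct
The first TXNRD1 match reads along the gene and the other matches lie on the opposite strand. A match is a run of letters, not a shown binding site, and the windows of NQO1, GCLC, SRXN1, AKR1C1, AKR1C2 and AKR1C3 hold none of these letters in this stretch.

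The AKR1C genes are neighbours on chromosome 10. The 120 bases before each gene's start are printed to show how alike these upstream stretches are. They are not probe sequences, so they do not show whether a probe set reads several AKR1C genes. The likeness of the AKR1C transcripts was not examined. Lower-case bases are those that align and are identical, and capitals mark bases that differ from or do not align with AKR1C1 (for AKR1C1, with AKR1C2).
AKR1C1, chr10:4963295-4963414, plus strand: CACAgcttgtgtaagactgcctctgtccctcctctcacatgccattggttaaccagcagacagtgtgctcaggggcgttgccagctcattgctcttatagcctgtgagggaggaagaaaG
AKR1C2, chr10:5003858-5003977, minus strand: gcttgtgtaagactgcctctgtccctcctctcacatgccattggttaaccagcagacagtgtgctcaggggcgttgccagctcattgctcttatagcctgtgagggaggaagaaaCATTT
AKR1C3, chr10:5048661-5048780, plus strand: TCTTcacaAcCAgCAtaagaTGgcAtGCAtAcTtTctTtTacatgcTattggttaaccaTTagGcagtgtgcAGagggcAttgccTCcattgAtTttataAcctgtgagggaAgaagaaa
AKR1C1 and AKR1C2 were identical at 115 of 116 aligned bases (99.1%) there, while AKR1C1 and this AKR1C3 window matched at 87 of 116 (75%) and the other AKR1C3 window at 86 of 111 (77.5%).

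Facts of the whole series were as follows. Deposited intensities had array medians of 39.1 to 41.4 units. ADM and NDRG1, textbook hypoxia genes, rose in hypoxia in both lines, ADM by 4.59 ± 0.36 (log2 fold change ± standard error) in FG and 3.72 ± 0.36 in L3.6pl, the direction that the oxygen labels imply. All 5 epithelial markers were measured, and their summed intensity was 24366 to 30256 on the 12 arrays. Of 14 markers of other cell types 12 were measured, with a summed intensity of 390 to 661, and PECAM1 was the brightest at log2 6.66 to 8.52. The log2 difference between the 3′ and 5′ control probe sets of beta-actin, which grows when RNA or its labelling is shortened, was 1.34 in L3.6pl hypoxia replicate 3, 1.14 in FG normoxia replicate 1 and 0.874 in L3.6pl normoxia replicate 1, against 0.340 to 0.714 on the other 9 arrays. For GAPDH the same 3′ minus 5′ difference was far narrower. It was -0.032, 0.013 and -0.093 on those 3 arrays in that order, and -0.185 to -0.120 on the other 9. Arrays of both lines with the same replicate number and the same oxygen deviated together, with correlations across genes of 0.358 to 0.735. Line differences are therefore also given with that number as a block.

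Values below are log2 of the deposited intensity of the brightest probe set of each gene. A probe set's brightness depends on its own probes, so levels are compared between groups and not between genes. Over all 12 arrays the AKR1C probe sets were among the brightest on the array, with a mean of 12.04 for AKR1C1, above 98.6% of genes, while HMOX1 at 5.66 and AKR1B10 at 5.47 were brighter than 40.8% and 37.4% of genes. All 12 arrays entered a limma model, a gene counted as called where its p, adjusted by Benjamini and Hochberg's method across the 19775 genes, was below 0.05, and all adjusted p-values below come from such fits. In a bulk culture a lower value cannot tell fewer expressing cells from less RNA per cell.

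**Figure D1:**
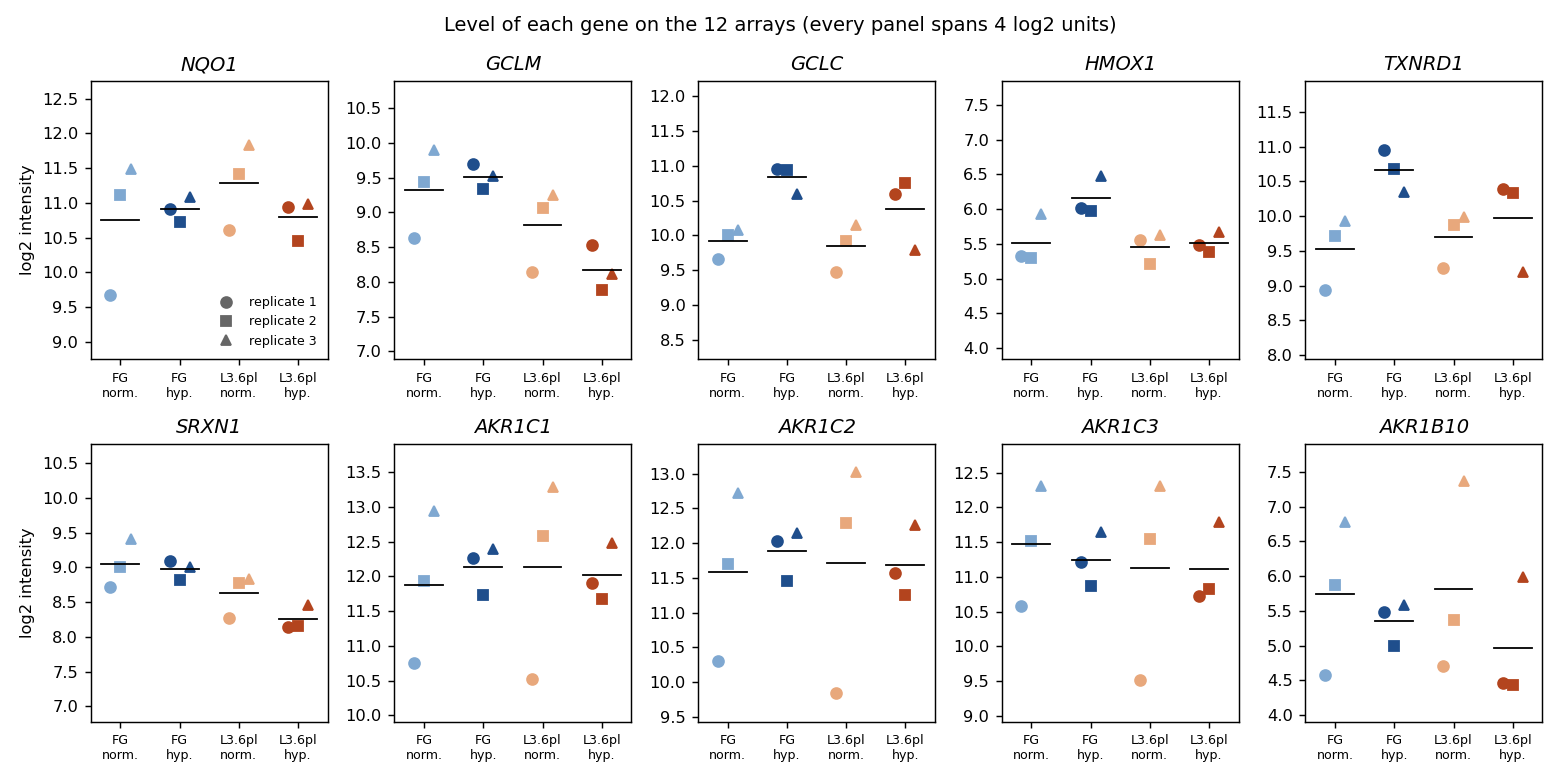
Log2 intensity of the 10 genes (vertical axis, each panel spanning 4 log2 units) on the 12 arrays, by line and oxygen (norm., normoxia; hyp., hypoxia); the marker shape gives the replicate number and the bar the mean of 3 arrays. In normoxia the AKR1C genes span 1.72 to 3.18 log2 units within a group, while GCLC and TXNRD1 in FG sit higher on all hypoxia arrays.

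Hypoxia raised 1 of the 10 genes in FG, GCLC, against 10.7% of all genes called in that comparison (4.24% higher). In L3.6pl none was called, against 6.86% of all genes. HMOX1 and TXNRD1 were also higher on every FG hypoxia array than on any FG normoxia array without passing the test, so 3 of the 10 genes did not overlap upwards in FG, against 10.9% of all genes. The median log2 change of the 10 genes was 0.22 in FG and -0.071 in L3.6pl, beside -0.026 and -0.022 over all genes. At an unadjusted p below 0.05 limma gave 3 of the 10 genes in FG, near the 23.3% of all genes at that threshold, and 0 in L3.6pl, against 21.3% of all genes. The 3 arrays with the widest actin differences, the replicate 1 arrays of normoxia and L3.6pl hypoxia replicate 3, were also left out together. This choice was made on earlier results, and each L3.6pl group then had 1 array fewer. That fit called 8 of the 10 in L3.6pl hypoxia, and 4179 of all 19775 genes. GCLC was higher there, and NQO1, GCLM, SRXN1, AKR1C1, AKR1C2, AKR1C3 and AKR1B10 were lower. In its group L3.6pl normoxia replicate 1 was lowest for 9 of the 10, and L3.6pl hypoxia replicate 3 was highest for 7. Leaving both out therefore lowers most of these differences whatever the effect of hypoxia.

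GCLC, the catalytic subunit of glutamate-cysteine ligase, read 10.96, 10.95 and 10.59 in FG hypoxia and 9.66, 10.01 and 10.07 in FG normoxia (replicates 1, 2 and 3 here and below). In L3.6pl it read 10.59, 10.76 and 9.78 in hypoxia and 9.48, 9.91 and 10.15 in normoxia. The FG groups were apart, and in L3.6pl replicates 1 and 2 of hypoxia lay above all normoxia arrays while replicate 3 lay among them. GCLC rose by 0.92 ± 0.25 in FG, a 1.89-fold change (adjusted p = 0.0422). The difference in L3.6pl was 0.53 ± 0.25 (adjusted p = 0.261), and it was called without L3.6pl hypoxia replicate 3 (0.83, adjusted p = 0.0268). The FG call was lost when any of the 6 FG arrays, L3.6pl hypoxia replicate 1 or L3.6pl normoxia replicate 2 was left out (adjusted p 0.0512 to 0.142), while the change stayed between 0.79 and 1.04. Without L3.6pl hypoxia replicate 3, the array with the widest actin difference, the adjusted p in FG was 0.00806.

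The 3 probe sets of GCLC did not move alike. The brightest, 202923_s_at, gave the values above. The dimmer 1555330_at read 7.27, 7.34 and 6.27 in FG hypoxia and 5.93, 5.62 and 5.07 in FG normoxia, with no overlap, and differed by 1.42 ± 0.51 (adjusted p = 0.105 over all probe sets). Its L3.6pl readings were 6.64, 6.79 and 4.70 in hypoxia, so replicate 3 was again the low one, and 5.88, 5.94 and 5.37 in normoxia. Probe set 202922_at was nearly flat, with differences of -0.10 ± 0.18 in FG and -0.21 ± 0.18 in L3.6pl. The mean of the 3 probe sets was 0.75 higher in FG hypoxia and was not called (adjusted p = 0.0737). The place of each probe set along the GCLC transcripts was not analysed here.

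GCLM, the regulatory subunit that raises the efficiency of GCLC, read 9.69, 9.34 and 9.52 in FG hypoxia and 8.63, 9.44 and 9.90 in FG normoxia. In L3.6pl it read 8.53, 7.88 and 8.11 in hypoxia and 8.14, 9.07 and 9.25 in normoxia. Hypoxia and normoxia overlapped in both lines, and normoxia replicate 1 was the low normoxia array in each. The hypoxia differences were 0.19 ± 0.34 in FG (adjusted p = 0.821) and -0.65 ± 0.34 in L3.6pl (adjusted p = 0.320), with 95% intervals of -0.56 to 0.95 and -1.40 to 0.11. Both dimmer GCLM probe sets had lower means in hypoxia in both lines, by 0.32 and 0.37 in FG and by 0.80 and 0.78 in L3.6pl, none called, so the sign of the FG difference depends on the probe set. Of the subunits of this enzyme, GCLC was called higher in FG hypoxia and GCLM was not, and the difference between both was not tested.

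**Figure D2:**
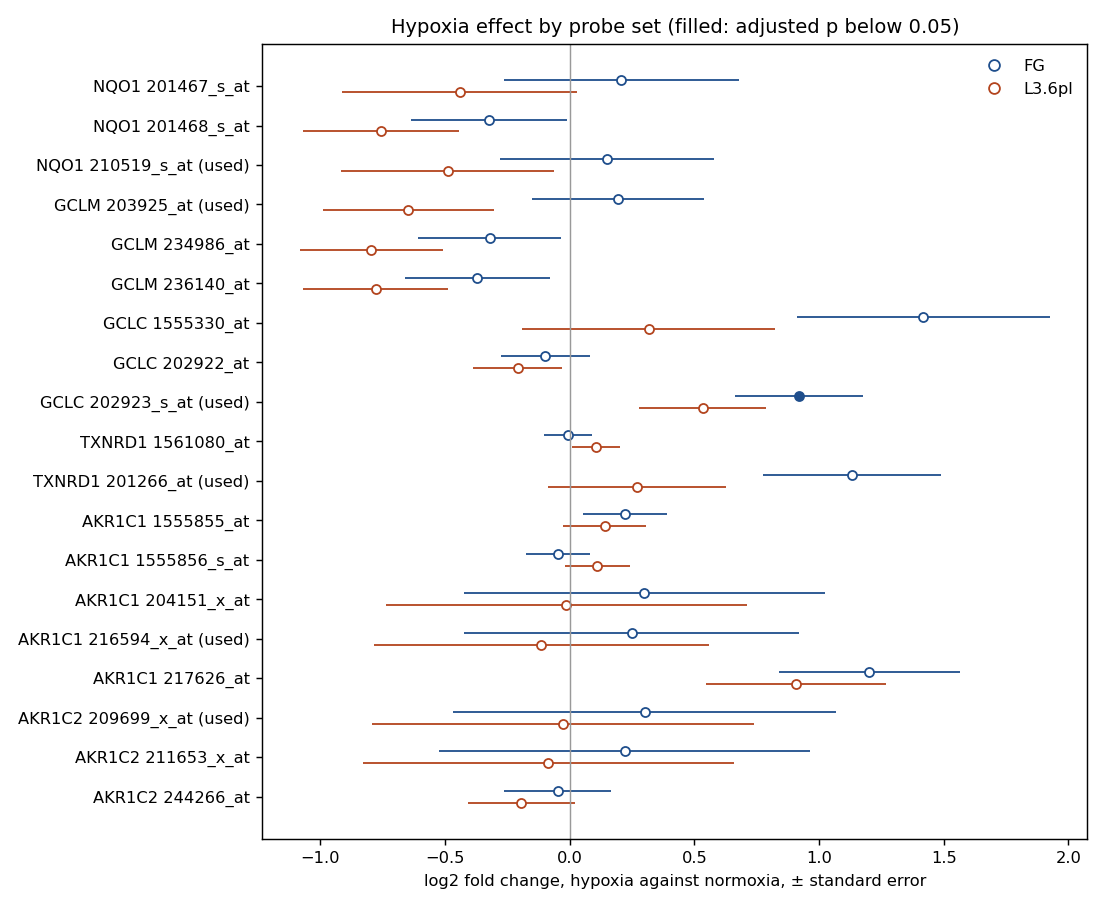
Log2 fold change of hypoxia against normoxia with its standard error (horizontal axis) for every probe set of GCLC, GCLM, NQO1, TXNRD1, AKR1C1 and AKR1C2, in FG (blue) and L3.6pl (red); filled points passed an adjusted p below 0.05 over all probe sets. GCLC 202923_s_at in FG is the filled point, GCLC 202922_at lies near 0, and AKR1C1 217626_at lies at 1.20 and 0.91 while the other AKR1C1 and AKR1C2 probe sets lie between -0.19 and 0.30.

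TXNRD1, the cytosolic thioredoxin reductase, read 10.95, 10.68 and 10.35 in FG hypoxia and 8.94, 9.71 and 9.93 in FG normoxia. In L3.6pl it read 10.39, 10.33 and 9.20 in hypoxia and 9.26, 9.87 and 9.98 in normoxia. All FG hypoxia arrays were above all FG normoxia arrays, and in L3.6pl hypoxia replicate 3 was the lowest of the line's 6 arrays. The difference in FG was 1.13 ± 0.35 (2.19-fold) and missed the threshold (adjusted p = 0.0683). In L3.6pl it was 0.27 ± 0.35 (adjusted p = 0.750), with a 95% interval of -0.51 to 1.05. Without L3.6pl hypoxia replicate 3 the FG difference was called (adjusted p = 0.0207). That array had the widest actin difference, whose part in its low TXNRD1 and GCLC values was not tested. TXNRD1 and GCLC had the second most similar patterns among pairs of the 10 genes, after AKR1C1 and AKR1C2. Their root mean square difference was 0.200 log2 units over 12 arrays centred per gene. The other TXNRD1 probe set, 1561080_at, was very dim, with a mean of 2.54, and flat. Its hypoxia differences were -0.0071 in FG and 0.10 in L3.6pl, neither called.

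SRXN1, sulfiredoxin, which restores overoxidised peroxiredoxins, read 9.09, 8.82 and 9.01 in FG hypoxia and 8.72, 9.00 and 9.41 in FG normoxia. The L3.6pl readings were 8.15, 8.15 and 8.46 in hypoxia and 8.27, 8.78 and 8.84 in normoxia. The oxygen groups overlapped in both lines, and the FG hypoxia arrays were all above the L3.6pl hypoxia arrays. The hypoxia difference was -0.070 ± 0.19 in FG (adjusted p = 0.893) and -0.37 ± 0.19 in L3.6pl (adjusted p = 0.314). The FG difference turned to 0.037 after cyclic loess normalization and was not called there.

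NQO1, the quinone reductase most often used as a readout of NRF2, read 10.91, 10.72 and 11.08 in FG hypoxia and 9.67, 11.12 and 11.48 in FG normoxia. The readings in L3.6pl were 10.94, 10.46 and 10.98 in hypoxia and 10.60, 11.41 and 11.83 in normoxia. Normoxia spread far more than hypoxia, 1.81 against 0.35 log2 units in FG, with replicate 1 low in both lines. The hypoxia differences were 0.15 ± 0.43 in FG (adjusted p = 0.897) and -0.49 ± 0.43 in L3.6pl (adjusted p = 0.594). With both replicate 1 arrays of normoxia and L3.6pl hypoxia replicate 3 left out, the FG difference turned to -0.39, not called (adjusted p = 0.217). NQO1 was then called lower in L3.6pl hypoxia (-0.93 ± 0.21, adjusted p = 0.0149). On all arrays, probe set 201467_s_at gave 0.21 in FG and -0.44 in L3.6pl, and 201468_s_at gave -0.32 and -0.76. None of these was called, and the sign of the FG difference depends on the probe set.

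HMOX1, heme oxygenase 1, read 6.02, 5.97 and 6.48 in FG hypoxia and 5.33, 5.30 and 5.93 in FG normoxia. For L3.6pl the readings were 5.49, 5.38 and 5.67 in hypoxia and 5.56, 5.21 and 5.62 in normoxia. Replicate 3 was the highest array of every group, and the FG groups nearly met, at 5.93 in normoxia and 5.97 in hypoxia. The FG difference of 0.64 ± 0.20 (1.56-fold) was not called (adjusted p = 0.0663), and the L3.6pl difference was 0.051 ± 0.20 (adjusted p = 0.930), with a 95% interval of -0.39 to 0.49. The FG difference was called when FG normoxia replicate 3 was left out (0.84, adjusted p = 0.0202). These are dim signals, near the median of 6.30 over all genes or below it.

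AKR1C1, which inactivates progesterone and reduces lipid aldehydes, read 12.26, 11.73 and 12.39 in FG hypoxia and 10.76, 11.93 and 12.95 in FG normoxia. In L3.6pl it read 11.90, 11.67 and 12.48 in hypoxia and 10.53, 12.58 and 13.29 in normoxia. In each line the normoxia arrays held both the lowest and the highest value, with hypoxia in between. AKR1C2, a reductase of dihydrotestosterone, read 12.03, 11.46 and 12.15 in FG hypoxia, 10.31, 11.71 and 12.72 in FG normoxia, 11.56, 11.25 and 12.26 in L3.6pl hypoxia and 9.84, 12.29 and 13.02 in L3.6pl normoxia. AKR1C3, which makes testosterone and prostaglandin F, read 11.21, 10.88 and 11.65 in FG hypoxia, 10.59, 11.51 and 12.31 in FG normoxia, 10.72, 10.82 and 11.79 in L3.6pl hypoxia and 9.52, 11.54 and 12.31 in L3.6pl normoxia. The 3 genes shared the same order of arrays in normoxia in both lines, with replicate 1 lowest and replicate 3 highest.

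The normoxia arrays of L3.6pl differed 6.77-fold in AKR1C1, 9.04-fold in AKR1C2 and 6.90-fold in AKR1C3 from lowest to highest, and those of FG 4.56-fold, 5.33-fold and 3.30-fold. Over all genes the median range within normoxia was 0.30 log2 units in FG and 0.26 in L3.6pl, and the share of genes with a smaller range was 98.5% for AKR1C3 in FG and higher for the other readings of these 3. With that spread hypoxia differences were 0.25 ± 0.67, 0.30 ± 0.76 and -0.23 ± 0.65 in FG and -0.11 ± 0.67, -0.027 ± 0.76 and -0.011 ± 0.65 in L3.6pl for AKR1C1, AKR1C2 and AKR1C3, with adjusted p from 0.881 to 0.995. The 95% interval for AKR1C1 in FG ran from -1.23 to 1.72. Without L3.6pl normoxia replicate 1 the AKR1C1 difference in L3.6pl was -0.92, and without L3.6pl normoxia replicate 3 it was 0.46, neither called. With the replicate 1 arrays of normoxia and L3.6pl hypoxia replicate 3 left out together, all 3 genes were called lower in L3.6pl hypoxia, AKR1C1 by -1.15 (adjusted p = 0.0475).

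The bright probe sets of AKR1C1 and AKR1C2 had nearly the same pattern over the arrays. Probe sequences were not at hand, so whether these probes read both genes was not examined. Those ending in _x_at, in Affymetrix naming, hold probes that also match other transcripts, and the main probe sets of AKR1C1 and AKR1C2 are of this kind. Centred per probe set, 204151_x_at of AKR1C1 differed from the main AKR1C1 probe set 216594_x_at by a root mean square of 0.0861 log2 units over the 12 arrays, and the AKR1C2 probe sets 211653_x_at and 209699_x_at by 0.108 and 0.132. The AKR1C2 probe sets thus lay nearly as close to the main AKR1C1 probe set as the other bright AKR1C1 probe set did, and whether 1 gene or both vary cannot be told apart from these. AKR1C3 209160_at, with no such suffix, lay farther away, at 0.277 and by up to 0.632 on a single array. Probe set 1555854_at, listed for both AKR1C1 and AKR1C2, was not used for either and differed by 0.773.

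AKR1C1 217626_at went another way. It read 7.68, 8.02 and 7.75 in FG hypoxia and 6.36, 6.31 and 7.19 in FG normoxia, and in L3.6pl 7.16, 7.48 and 7.45 in hypoxia and 5.63, 6.44 and 7.29 in normoxia. All FG hypoxia arrays were above the FG normoxia arrays, and in L3.6pl normoxia replicate 3 lay among the hypoxia arrays. Its hypoxia differences were 1.20 ± 0.36 in FG (adjusted p = 0.0580 over all probe sets) and 0.91 ± 0.36 in L3.6pl (adjusted p = 0.187), neither called. The remaining AKR1C probe sets, 1555855_at, 1555856_s_at and 244266_at, were dim, between 3.71 and 4.92, and nearly flat.

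**Figure D3:**
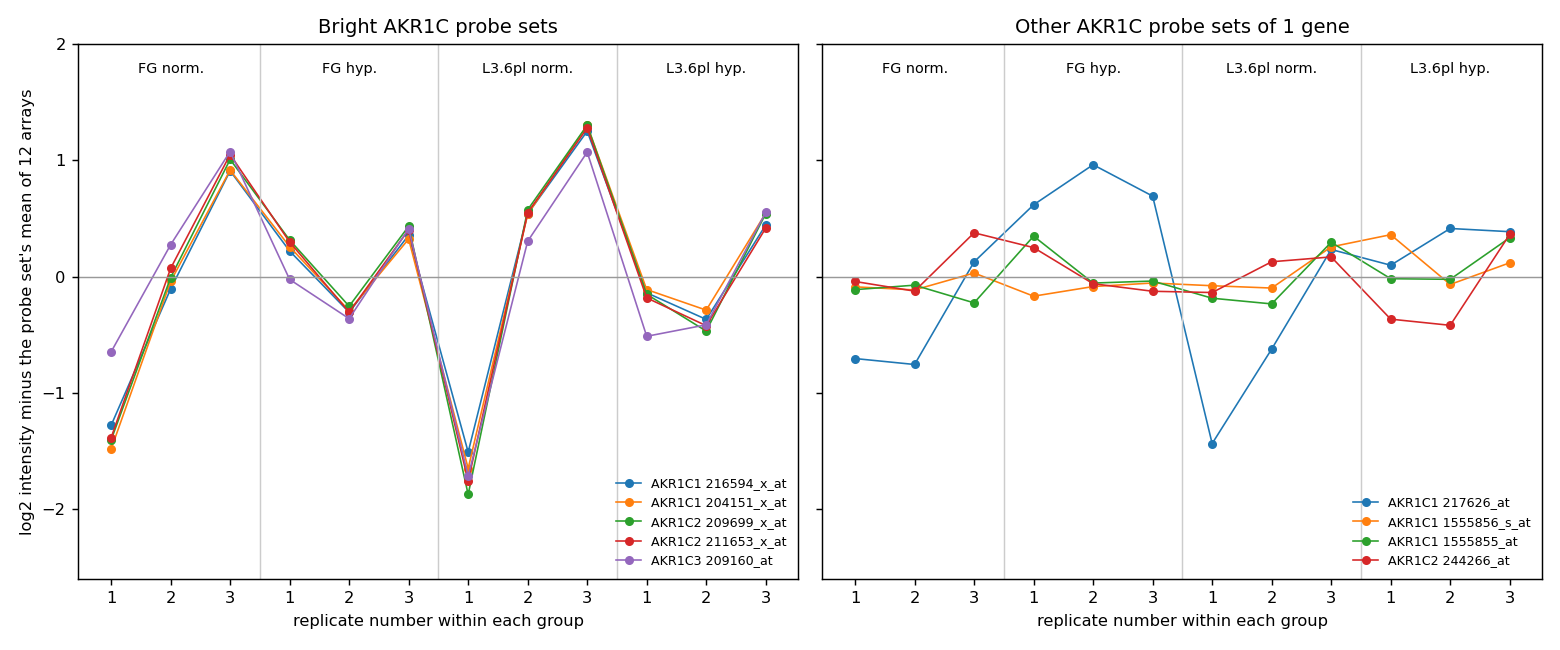
Log2 intensity of the AKR1C probe sets of 1 gene minus the probe set's mean over the 12 arrays (vertical axis), by array (horizontal axis, replicate number within each group); lines only join the points of a probe set. The 4 bright _x_at probe sets of AKR1C1 and AKR1C2 nearly coincide, AKR1C3 209160_at lies farther from them, all 5 have their lowest point in L3.6pl normoxia replicate 1, and AKR1C1 217626_at is higher in FG hypoxia than in FG normoxia.

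AKR1B10, a reductase of retinal and lipid aldehydes, was dim. It read 5.48, 4.99 and 5.59 in FG hypoxia and 4.57, 5.88 and 6.77 in FG normoxia, and in L3.6pl 4.46, 4.44 and 5.99 in hypoxia and 4.71, 5.36 and 7.37 in normoxia. Normoxia replicate 3 was again highest in both lines and replicate 1 lowest, a range of 2.20 units in FG and 2.66 in L3.6pl, as in the AKR1C genes on a separate probe set. Hypoxia differences were -0.39 ± 0.71 in FG (adjusted p = 0.827) and -0.85 ± 0.71 in L3.6pl (adjusted p = 0.576). The L3.6pl difference was -1.40 without L3.6pl normoxia replicate 1 and -0.073 without L3.6pl normoxia replicate 3, neither called, and -1.92 ± 0.55 and called (adjusted p = 0.0356) with both replicate 1 arrays of normoxia and L3.6pl hypoxia replicate 3 left out. The annotation gives a single probe set for it, 206561_s_at.

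The order of arrays in normoxia was shared beyond the AKR1 genes. In both lines all 10 genes were highest in normoxia replicate 3, as were 41.5% of all genes in FG and 42.2% in L3.6pl, and 9 of the 10, HMOX1 being the exception, were lowest in replicate 1, as were 41.7% and 42.6%. Mean log2 over the 10 genes was 8.72, 9.56 and 10.15 on the FG normoxia arrays and 8.59, 9.60 and 10.17 on those of L3.6pl. Both replicate 1 arrays of normoxia also had wide actin differences (1.14 and 0.874). The values were 0.493 and 0.519 for replicate 2 and 0.674 and 0.714 for replicate 3. The part of RNA quality in this spread was not tested. In FG all 10 genes spread less in hypoxia than in normoxia, from 0.27 (SRXN1) to 0.77 (AKR1C3) log2 units. In L3.6pl hypoxia the spread ran from 0.28 (HMOX1) to 1.55 (AKR1B10), and GCLC and TXNRD1 spread more there (0.98 and 1.19) than in L3.6pl normoxia (0.67 and 0.73).

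Between the lines, L3.6pl had lower GCLM, HMOX1 and SRXN1 than FG in hypoxia, and none of the 10 genes was called in normoxia. The called share of all genes was 16.7% in hypoxia (6.72% lower) and 10.7% in normoxia. In hypoxia all 10 differences were below 0 with a median of -0.42, beside 0.016 over all genes. In normoxia 5 of 10 were above 0 with a median of 0.0079, and limma gave 0 of the 10 at an unadjusted p below 0.05, against 22.1% of all genes. Both comparisons share no arrays with each other, but each shares its arrays with the hypoxia comparisons above.

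GCLM had the largest of these differences, -1.34 ± 0.34 (L3.6pl 2.54-fold lower, adjusted p = 0.0209), with group means of 9.52 ± 0.18 (SD, n = 3) in FG and 8.17 ± 0.33 (SD, n = 3) in L3.6pl. Every L3.6pl hypoxia array lay below every FG one. The 3 GCLM probe sets were each called in this direction (-1.34, -1.30 and -1.01, adjusted p = 0.0254, 0.0128 and 0.0413 over all probe sets). The call was lost without FG hypoxia replicate 1 or 3 or L3.6pl hypoxia replicate 2 or 3 (adjusted p 0.0523 to 0.0760), with the difference between -1.20 and -1.52 whichever array was left out.

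SRXN1 was 0.72 ± 0.19 lower on the log2 scale in L3.6pl hypoxia (1.65-fold, adjusted p = 0.0278), from 8.98 ± 0.14 (SD, n = 3) to 8.26 ± 0.18 (SD, n = 3). HMOX1 was 0.64 ± 0.20 lower (1.56-fold, adjusted p = 0.0480), from 6.16 ± 0.28 (SD, n = 3) to 5.51 ± 0.14 (SD, n = 3). Neither overlapped between the lines in hypoxia, as 13.9% of all genes did not in this direction. Leaving out any FG hypoxia array or L3.6pl hypoxia replicate 1 or 2 ended the SRXN1 call (adjusted p 0.0504 to 0.0961). The HMOX1 call ended without any of 10 arrays, all but FG normoxia replicates 1 and 3 (adjusted p 0.0525 to 0.154). It was also lost with probe sets tested singly (adjusted p = 0.0567) and with 16 added to the intensity (adjusted p = 0.0549).

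Pairing the lines by replicate number within each oxygen condition, an alternative added after the data were seen, narrowed the errors. In hypoxia the paired differences of GCLM were -1.16, -1.46 and -1.41 and in normoxia -0.48, -0.37 and -0.66, all on the same side. With the number as a block GCLM was called lower in L3.6pl in both conditions, by -1.34 ± 0.10 (adjusted p = 3.81e-05) in hypoxia and -0.51 ± 0.10 (adjusted p = 0.00685) in normoxia. SRXN1 was likewise called lower in both (adjusted p = 0.00137 and 0.0250), while HMOX1 was called in hypoxia (adjusted p = 0.00355) and not in normoxia. NQO1 was called higher in L3.6pl in normoxia, by 0.52 ± 0.13 (adjusted p = 0.0230), from paired differences of 0.93, 0.29 and 0.35. TXNRD1 (-0.68 ± 0.15, adjusted p = 0.00792) and GCLC (-0.45 ± 0.12, adjusted p = 0.0249) were called lower in L3.6pl hypoxia, and both differences were widest in replicate 3 (-1.15 and -0.81), where the L3.6pl array had the wide actin difference.

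The AKR1 genes did not differ between the lines in any of these fits in a way that was called. The normoxia differences in pairs were -0.23, 0.65 and 0.34 for AKR1C1 and -1.07, 0.031 and -0.0051 for AKR1C3, and in hypoxia -0.36, -0.061 and 0.087 for AKR1C1 and -0.49, -0.053 and 0.14 for AKR1C3. AKR1B10 differed by 0.13, -0.52 and 0.60 in normoxia and by -1.02, -0.55 and 0.40 in hypoxia. Signs were mixed among the 3 pairs of each of these genes. Blocked errors for AKR1C1 were 0.16, against 0.67 without the block.

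**Figure D4:**
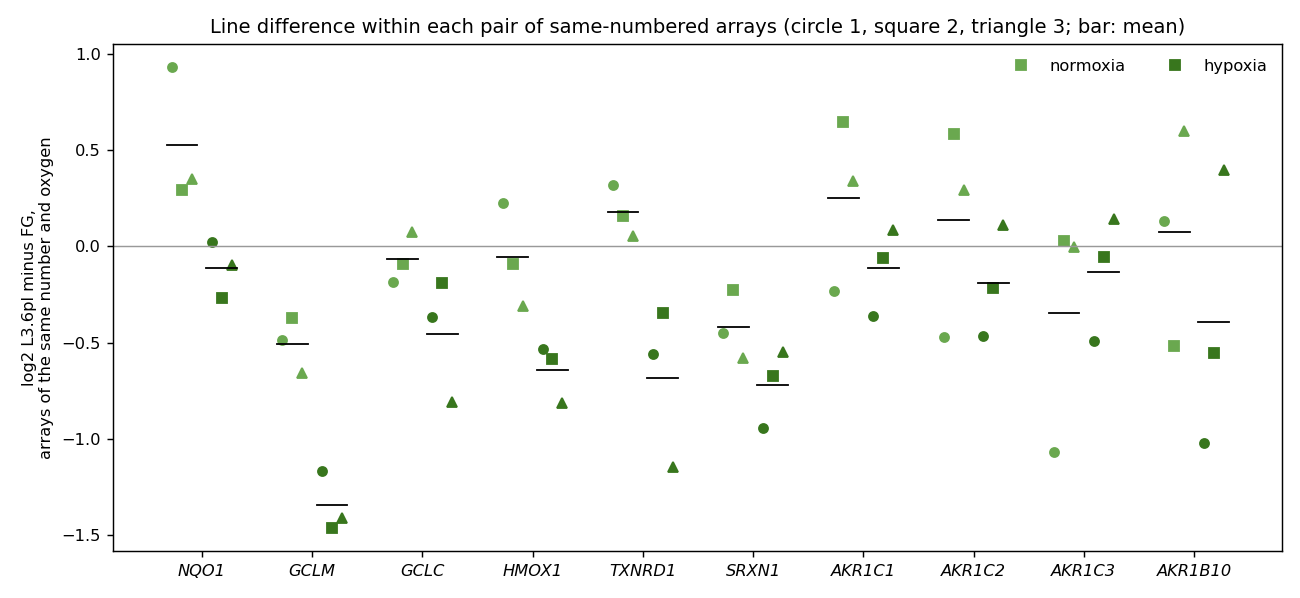
Log2 difference of L3.6pl minus FG (vertical axis) within each pair of arrays with the same replicate number and oxygen, for the 10 genes, in normoxia (light) and hypoxia (dark); marker shapes give the replicate number and bars the mean of 3 pairs. GCLM and SRXN1 lie below 0 in all 6 pairs, and the AKR1C genes lie on both sides of 0.

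**Figure D5:**
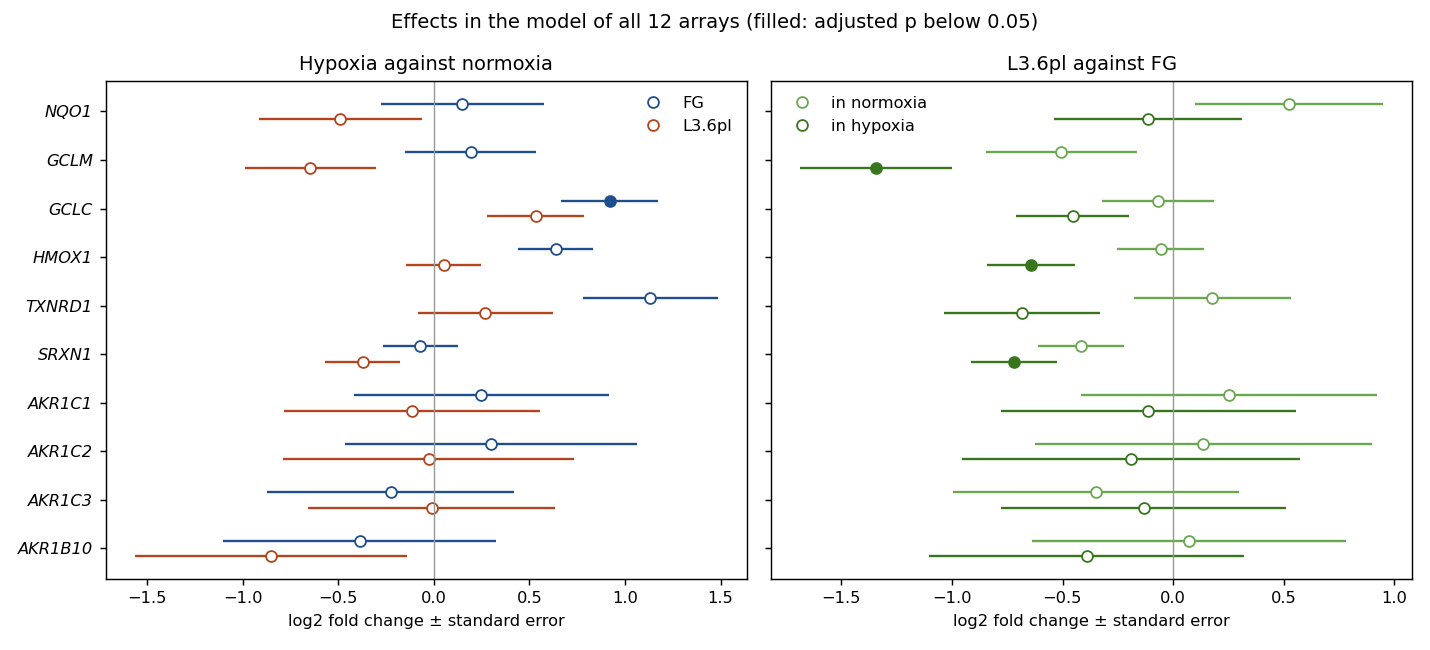
Log2 fold change with its standard error (horizontal axis) for the 10 genes in the model of all 12 arrays, for hypoxia against normoxia in each line (left) and L3.6pl against FG at each oxygen level (right); filled points passed an adjusted p below 0.05 over all genes. GCLC in FG, and GCLM, HMOX1 and SRXN1 between the lines in hypoxia, are filled.

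Whether hypoxia acted differently in the lines was tested as the interaction, in which the FG effect is subtracted from that of L3.6pl. None of the 10 was called, against 0.0253% of all genes, and limma gave 0 of the 10 at an unadjusted p below 0.05, against 7.22% of all genes. The estimates were below 0 for 9 of 10, AKR1C3 being the exception, while 10319 of all 19775 genes were above 0. They were -0.84 ± 0.48 for GCLM, -0.86 ± 0.50 for TXNRD1, -0.59 ± 0.28 for HMOX1 and -0.39 ± 0.36 for GCLC. A call in FG and none in L3.6pl therefore does not show that the lines respond differently. With the replicate number as a block within oxygen, GCLM was called (-0.84 ± 0.14, adjusted p = 0.0229) and the other 9 were not. That fit called 703 of all 19775 genes for the interaction.

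The levels of the regulators were measured as well. Of 14 genes listed as NRF2 regulators 13 were measured, and in hypoxia 3 rose and 2 fell in FG, while 2 rose and none fell in L3.6pl. The called share of all genes was 10.7% in FG and 6.86% in L3.6pl. The regulators' median differences were -0.017 and -0.015. BACH1, the repressor, read 9.50, 9.59 and 9.53 in FG hypoxia against 7.94, 7.87 and 7.48 in normoxia, and 10.03, 10.63 and 10.13 against 8.52, 7.88 and 7.87 in L3.6pl. It did not overlap in either line and rose by 1.78 ± 0.21 (adjusted p = 0.000623) and 2.17 ± 0.21 (adjusted p = 0.000373). MAFF rose by 3.73 ± 0.36 in FG (adjusted p = 0.000221) and 2.20 ± 0.36 in L3.6pl (adjusted p = 0.00535), and MAFG by 1.60 ± 0.24 in FG (adjusted p = 0.00227), with 0.65 ± 0.24 in L3.6pl (adjusted p = 0.137). NFE2L2, which encodes NRF2, read 11.45 to 11.56 in FG hypoxia against 11.03 to 11.47 in normoxia and 10.66 to 11.28 against 10.72 to 11.07 in L3.6pl, with no call in any of the 5 comparisons in the model of all 12 arrays without a block. Its L3.6pl hypoxia arrays were all below its FG hypoxia arrays, a difference of -0.44 ± 0.17 (adjusted p = 0.116). With the replicate block within oxygen NFE2L2 was called lower there (-0.44 ± 0.14, adjusted p = 0.0464), as it was with the mean of all its probe sets (-0.38, adjusted p = 0.00818), with array weights (-0.55, adjusted p = 0.0296) and with both replicate 1 arrays of normoxia and L3.6pl hypoxia replicate 3 left out (-0.55, adjusted p = 0.0330). Its FG hypoxia difference of 0.26 ± 0.17 (adjusted p = 0.430) was called with array weights alone (0.41, adjusted p = 0.0389). KEAP1 differed in hypoxia by -0.017 ± 0.13 in FG and 0.091 ± 0.13 in L3.6pl. NRF2 is regulated mainly through protein stability, which these arrays do not read.

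CUL3, the ligase scaffold, and PALB2, which can bind KEAP1, fell in FG hypoxia by 0.76 ± 0.12 and 1.35 ± 0.20 (adjusted p = 0.00330 and 0.00244). Between the lines PALB2 was higher in L3.6pl in normoxia (0.99 ± 0.20) and in hypoxia (1.71 ± 0.20), and CUL3 in hypoxia (0.61 ± 0.12, adjusted p = 0.00616), while MAFG was lower there by 1.14 ± 0.24 (adjusted p = 0.00732). BACH1 and KEAP1 were 0.72 ± 0.21 and 0.45 ± 0.13 higher in L3.6pl hypoxia (adjusted p = 0.0351 and 0.0376), calls lost in 4 and 6 of the 12 fits that each left out 1 array. With the mean of all probe sets the BACH1 and CUL3 differences in hypoxia were 0.18 and 0.32 and not called (adjusted p = 0.154 and 0.148). With the replicate block within oxygen KEAP1 was also called higher in L3.6pl normoxia (0.34 ± 0.089, adjusted p = 0.0255). In all, 5 of 13 regulators were called higher and 1 lower in L3.6pl hypoxia, where 16.7% of all genes were called. In normoxia 1 was called higher, against 10.7% of all genes called. The regulators' median difference was 0.25 in hypoxia.

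The wider glutathione genes, 19 of 19 measured, held 1 called higher and 1 lower in FG hypoxia, where 10.7% of all genes were called. Their median difference was -0.13 in L3.6pl hypoxia, where 6.86% of all genes were called, and -0.033 in FG hypoxia. SLC3A2, the heavy chain of the cystine and amino acid transporters, rose by 0.75 ± 0.17 (adjusted p = 0.0167), and GSTA4, a glutathione transferase, fell by 0.96 ± 0.24 (adjusted p = 0.0265). In L3.6pl hypoxia MGST1, a membrane-bound transferase, was the single call, -0.93 ± 0.21 (adjusted p = 0.0264). Single arrays left out ended these calls in 1, 5 and 3 of 12 fits. SLC7A11, the cystine carrier and an NRF2 target, was 1.15 ± 0.43 lower in L3.6pl hypoxia without overlap and was not called (adjusted p = 0.141); it is named outside the rule for named genes, after its values were seen. GSS, glutathione synthetase, was higher in L3.6pl than in FG, by 0.66 ± 0.11 in normoxia (adjusted p = 0.00373) and 0.93 ± 0.11 in hypoxia (adjusted p = 0.000325), while SLC3A2 and MGST1 were lower in hypoxia by 0.87 ± 0.17 and 0.74 ± 0.21. The MGST1 difference was lost in 7 of 12 fits with 1 array left out. In the line comparisons 1 of 19 was called higher and 3 lower in hypoxia, and 1 higher in normoxia. The called shares of all genes were 16.7% and 10.7%.

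Of the thioredoxin genes other than TXNRD1 and SRXN1, 12 of 14 were measured and none was called in any of the 5 comparisons. At an unadjusted p below 0.05 limma gave 2 of them for hypoxia in FG, where 23.3% of all genes passed that threshold. It gave 2 between the lines in hypoxia, where 28.4% of all genes passed, and 0 in the other 3 comparisons. Their median hypoxia difference was -0.14 in FG and -0.16 in L3.6pl. The other aldo-keto reductases, 6 of 11 measured, likewise held no call and 0 at an unadjusted p below 0.05 in all 5, with median hypoxia differences of -0.12 in FG and -0.086 in L3.6pl.

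Among 11 measured genes of NADPH supply, the cofactor that NQO1, TXNRD1 and the AKR1 enzymes use, IDH1 fell in hypoxia in both lines. The drops were 1.65 ± 0.24 in FG (adjusted p = 0.00196) and 1.67 ± 0.24 in L3.6pl (adjusted p = 0.00265). It was the single call of that list in FG, against 10.7% of all genes called there and 6.86% in L3.6pl. The list's median difference was -0.22 in FG, beside -0.29 in L3.6pl. In L3.6pl PGD of the pentose phosphate pathway (-0.48 ± 0.10) and the transhydrogenase NNT (-0.42 ± 0.11) were also called lower, but single arrays left out ended those calls in 2 and 9 of 12 fits. With the mean of all probe sets PGD (-0.14, adjusted p = 0.334) and NNT (-0.34, adjusted p = 0.0781) were not called. Malic enzymes ME3 and ME1 were lower in L3.6pl than in FG, by 1.52 ± 0.18 and 1.10 ± 0.18 in normoxia and by 1.55 ± 0.18 and 1.41 ± 0.18 in hypoxia. IDH2 was higher, by 0.88 ± 0.22 and 1.01 ± 0.22, a call lost in normoxia in 4 of 12 fits. In hypoxia it was lost with the mean of all probe sets (0.53, adjusted p = 0.0594). That list had 1 higher and 2 lower in normoxia and 1 higher and 3 lower in hypoxia. The called shares of all genes were 10.7% and 16.7%.

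Around HMOX1, the 10 measured heme and iron genes held no hypoxia call in either line, and limma gave 4 of them in FG and 0 in L3.6pl at an unadjusted p below 0.05. At that threshold were 23.3% of all genes in FG and 21.3% in L3.6pl. The list's median hypoxia difference was -0.24 in FG and -0.068 in L3.6pl. Between the lines BLVRA, the biliverdin reductase that acts after heme oxygenase, was higher in L3.6pl by 1.29 ± 0.22 in normoxia and 1.40 ± 0.22 in hypoxia (adjusted p = 0.00309 and 0.00129). FTL, ferritin light chain, was lower by 0.56 ± 0.11 and 0.47 ± 0.11, ALAS1 was higher in normoxia by 0.68 ± 0.19 and HMOX2 higher in hypoxia by 0.89 ± 0.26. The FTL call in hypoxia, the ALAS1 call and the HMOX2 call were lost in 1, 7 and 7 of 12 fits with 1 array left out. With the mean of all probe sets HMOX2 was not called either (0.71, adjusted p = 0.0605). The list thus had 2 called in each direction in normoxia and 2 higher and 1 lower in hypoxia. The called shares of all genes were 10.7% and 16.7%.

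Among the 17 other NRF2 targets and conjugation genes, EPHX1, microsomal epoxide hydrolase, fell in hypoxia in FG by 1.11 ± 0.10 (adjusted p = 0.000218) and in L3.6pl by 1.08 ± 0.10. The list's median difference was -0.13 in FG and -0.19 in L3.6pl. The exporters ABCC4 and ABCC2 fell in FG by 0.88 ± 0.23 and 0.48 ± 0.13, calls lost in 7 and 6 of 12 fits with 1 array left out, and ABCC3 rose in L3.6pl by 1.33 ± 0.27, lost in 2. With the mean of all probe sets the ABCC4 difference in FG was -0.46 and not called (adjusted p = 0.0674). Between the lines the exporters did not go one way. ABCC2 was lower in L3.6pl by 2.51 ± 0.13 in normoxia and 1.82 ± 0.13 in hypoxia and ABCC4 by 1.34 ± 0.23 and 1.26 ± 0.23, while ABCC1 was higher by 1.32 ± 0.21 and 1.07 ± 0.21 and ABCC3 by 1.56 ± 0.27 in hypoxia. UGDH, which makes UDP-glucuronate, was lower in hypoxia by 1.70 ± 0.27. In counts the list had 3 lower in FG hypoxia, 1 in each direction in L3.6pl hypoxia, and between the lines 3 higher and 2 lower in normoxia and 3 of each in hypoxia. The called shares of all genes in these comparisons were 10.7%, 6.86%, 10.7% and 16.7% in that order.

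The genes with the most similar profiles were found by the root mean square difference of centred log2 values over the 12 arrays, among 19765 other genes. For AKR1C1, AKR1C2 and AKR1C3 the nearest gene outside the 10 was GPX2, the gastrointestinal glutathione peroxidase, at 0.381, 0.442 and 0.353. GPX2 read 9.77, 11.14 and 11.45 in FG normoxia and 9.54, 10.96 and 11.28 in L3.6pl normoxia, the order of arrays seen in the AKR1C genes. These distances exceed that of 0.277 between AKR1C1 and AKR1C3. The next genes were CSRP2 for AKR1C1 (0.391), SGO2 for AKR1C2 (0.463) and MRPS31 for AKR1C3 (0.407), and AKR1B10 was nearest to C12orf60 (0.427) and ICAM3 (0.435).

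The other 6 had closer neighbours, but this distance is not scaled by how much a gene varies. Their SD over the 12 arrays was 0.36 to 0.65, against 0.76 to 0.89 for the AKR1 genes. NQO1 was nearest to XRCC4 (0.128) and MPDU1 (0.155), GCLM to BAG2 (0.174) and ZNF232-AS1 (0.175), and SRXN1 to DLD and COA4 (both 0.091). GCLC was nearest to BAGE2 (0.159) and YAF2 (0.171), TXNRD1 to YAF2 (0.189) and TSR1 (0.229), and HMOX1 to MYL12A (0.161) and FAM200B (0.164). YAF2 was thus among the nearest pair for both GCLC and TXNRD1, and it read 7.60, 7.39 and 7.51 in FG hypoxia against 6.09, 6.67 and 6.96 in FG normoxia.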

How the data were processed

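Total RNA was extracted with Trizol and labelled with biotin, per the labels' protocols. The authors deposited linear-scale intensity values normalized by RMA, as the submitters' processing notes name it. Its version, and how log2 output became linear, are not given in the sources used here. Log2 was taken here without further normalization. Of 54675 probe sets, 62 were controls; in the platform annotation 41091 had 1 gene, 1801 several and 11721 none, and only those of 1 gene were used. For genes with more than 1 probe set the one with the highest mean over the 12 arrays was used, and 23 probe sets measured the 10 genes alone. Symbols were updated through RefSeq's gene table, and sequences are RefSeq's.

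The 12 arrays were fitted with limma 3.58.1 in R 4.3.3, with 1 mean per group and eBayes moderation (8 residual and 2.72 prior degrees of freedom), in 5 comparisons; intervals are at 95%. An exact test of 3 arrays against 3 cannot go below p = 0.1, and the number of arrays limits the precision. The procedure was tested on simulated data. Named pathway genes were up to 3 called, non-overlapping genes of each list and comparison with the smallest adjusted p, with NFE2L2, KEAP1, BACH1, NDRG1 and ADM always. For similarity, the nearest 2 genes were named. The members and gene lists were chosen with earlier results of these data known, so no count over them is independent support.

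Pairing was checked by correlating the deviations of same-numbered arrays from their group means across genes: of 6 pairs of groups, both pairs of the lines at the same oxygen had every correlation over 0.1, with the replicate number from the labels, and pairs of hypoxia with normoxia did not. The block within oxygen was therefore added after the data were seen. Alternatives changed normalization, the filter on dim genes, probe set choice, moderation, array weights, the block, a constant of 16 added to the intensity and the threshold, and left out each array in turn.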

Additional observations from a re-analysis of the deposited data

Results flagged for a closer look

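In the fit with the replicate number as a block within each oxygen condition, the hypoxia effect on GCLM was 0.84 lower in L3.6pl than in FG (interaction -0.84, adjusted p = 0.0229). The same test gave -1.53 for MAFF (adjusted p = 0.0229) and -0.95 for MAFG (adjusted p = 0.0249), both small MAF partners of NRF2, so that hypoxia raised MAFF less in L3.6pl in that fit. The blocked fit called 703 of all 19775 genes for the interaction. Without the block none of these 3 genes was called (adjusted p = 0.797 for GCLM, 0.465 for MAFF and 0.501 for MAFG).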

How the results depend on the processing

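The limma results for the 10 genes were recomputed under 12 alternatives besides leaving out each array in turn. No normalization turned a called difference of the 10 genes, and every sign that turned belonged to a difference that was not called. With all 12 arrays the called genes numbered 2117 for hypoxia in FG, 1357 in L3.6pl, 2116 and 3310 between the lines in normoxia and hypoxia, and 5 for the interaction, and of the 10 genes 1, 0, 0, 3 and 0.

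Leaving out 1 array gave 1029 to 2899, 508 to 2436, 1254 to 2626, 2142 to 3813 and 2 to 23 called genes in that order, and 0 to 2, 0 to 1, 0, 0 to 3 and 0 of the 10. Differences that were not called and changed sign with 1 array left out had these ranges. For hypoxia in FG they were NQO1 -0.39 to 0.51, GCLM -0.16 to 0.48, SRXN1 -0.23 to 0.11, AKR1C1 -0.31 to 0.78, AKR1C2 -0.34 to 0.87, AKR1C3 -0.67 to 0.20, AKR1B10 -0.97 to 0.13 and KEAP1 -0.083 to 0.051. For hypoxia in L3.6pl they were HMOX1 -0.076 to 0.13, AKR1C1 -0.92 to 0.46, AKR1C2 -0.96 to 0.62, AKR1C3 -0.81 to 0.58 and KEAP1 -0.058 to 0.17. Between the lines in normoxia they were NQO1 -0.018 to 0.89, GCLC -0.22 to 0.12, HMOX1 -0.17 to 0.15, TXNRD1 -0.12 to 0.40, AKR1C1 -0.33 to 1.05, AKR1C2 -0.51 to 1.07, AKR1C3 -0.94 to 0.45 and AKR1B10 -0.71 to 0.63. In hypoxia they were NQO1 -0.21 to 0.055, AKR1C1 -0.34 to 0.062, AKR1C2 -0.47 to 0.031 and AKR1C3 -0.47 to 0.068, and for the interaction AKR1C1 -1.17 to 0.21, AKR1C2 -1.26 to 0.32, AKR1C3 -0.59 to 0.81 and AKR1B10 -1.02 to 0.31.

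Cyclic loess gave 15 interaction genes and turned SRXN1 (0.037) and KEAP1 (0.087) in FG hypoxia and AKR1C2 (0.031) and AKR1C3 (0.045) in L3.6pl hypoxia, and centring array medians turned AKR1C3 there (0.0054). The mean of all probe sets gave 13 interaction genes and 0 of the 10 genes in FG hypoxia, and turned GCLM in FG (-0.17) and AKR1C1 (0.21) and NFE2L2 (-0.028) in L3.6pl hypoxia. Testing probe sets singly, trend with robust moderation, and adding 16 to the intensity each gave 10 interaction genes, and the last gave 0 of the 10 genes in FG hypoxia. HMOX1 between the lines in hypoxia lost its call when probe sets were tested singly (adjusted p = 0.0567) and with 16 added (adjusted p = 0.0549). Array weights gave 5729, 5192, 6623 and 421 called genes for hypoxia in FG, in L3.6pl, between the lines in normoxia and for the interaction, and 3 of the 10 genes for hypoxia in each line. They turned NQO1 (-0.25), AKR1C2 (-0.015) and KEAP1 (0.050) in FG hypoxia, AKR1B10 between the lines in normoxia (-0.27) and the AKR1C3 interaction (-0.17). Fitting only the groups compared gave 797 genes for hypoxia in L3.6pl. At an adjusted p below 0.01 the counts were 860, 475, 1025, 1718 and 2, with 0 of the 10 genes in FG hypoxia and 0 between the lines in hypoxia.

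Leaving out FG normoxia replicate 1 with L3.6pl replicates normoxia 1 and hypoxia 3, a choice made on earlier results, gave 3871 and 4179 genes for hypoxia in FG and L3.6pl, 19 for the interaction, and 2 and 8 of the 10 genes in hypoxia. It turned NQO1 (-0.39), GCLM (-0.16), AKR1C1 (-0.31), AKR1C2 (-0.34) and KEAP1 (0.051) in FG hypoxia, KEAP1 in L3.6pl hypoxia (-0.021), AKR1C3 between the lines in normoxia (0.013) and its interaction (-0.49).

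A replicate block over all 4 groups, where hypoxia and normoxia numbers do not pair, gave 2130 genes for hypoxia in L3.6pl, 13 for the interaction and 2 of the 10 genes for hypoxia in FG. The replicate block within oxygen gave 4576 and 5935 genes between the lines in normoxia and hypoxia and 703 for the interaction, with 3, 5 and 1 of the 10 genes. It changed no other call of the 10 genes than those given above. The cause of these shifts was not tested, and the number of arrays limits all of them.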
